A study of Mus musculus with 8 samples.

Results

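The 10 genes described here encode the machinery by which photoreceptors make cyclic GMP, sense calcium and reset after light, and they were read in the mouse pineal gland, whose pinealocytes are developmental relatives of retinal photoreceptors and share many of their genes. They are Guca1a and Guca1b (guanylate cyclase activating proteins), Gucy2e and Gucy2f (membrane guanylate cyclases), Rcvrn (recoverin) and Grk1 (an opsin kinase), Cnga1, Cnga3 and Cngb1 (subunits of the cyclic nucleotide gated channel), and Slc24a1 (a sodium, calcium and potassium exchanger). The members were chosen by symbol out of 53710 genes of the deposited table, and in part because Guca1a and Gucy2f had moved in opposite directions between the groups. For that reason the values of the members in wild type and 5xFAD are described here and not tested. Of the 10 genes, 8 reached a mean of 1 FPKM (fragments per kilobase of transcript per number of fragments sequenced, a level corrected for length) over the 8 libraries, as did 13094 of 21980 protein-coding genes.

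RNA was sequenced from the pooled pineal glands of male mice, 5 to 7 glands in each library, taken at 5 months of age and at a zeitgeber time of 0.5 h, shortly after lights on. The wild type group (Normal-11, Normal-21, Normal-22 and Normal-23) came from C57BL/6 mice, and the 5xFAD group (5xFAD-21 and 5xFAD-1 to 5xFAD-3) from mice on a C57BL/6 background with the 5xFAD transgenes, which include human APP with the Swedish, Florida and London mutations. The Thy1 promoter drives the transgenes mainly in neurons, and the mouse annotation has no entry for the human sequences. The groups came from different suppliers, so supplier and genotype cannot be told apart. The steps between low FPKM values placed an estimated 11850000 to 19330000 fragments behind the scale of a library, and for a length of 2000 nt each fragment was worth 0.0283 to 0.0463 FPKM.

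In a photoreceptor, cyclic GMP holds the gated channel open, and calcium enters through it and leaves through the exchanger. Light lowers cyclic GMP, the channel closes and calcium falls. The activating proteins then release their brake and stimulate the cyclases, recoverin lets go of the opsin kinase, and the cell recovers. Rodent pinealocytes keep many of these transcripts in adult life, although the adult mammalian gland takes its timing from the eye through sympathetic nerves.

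The libraries held pinealocyte transcripts at high levels. Tph1, the first enzyme of melatonin synthesis, ranged from 613 to 1900 FPKM, and Crx, a photoreceptor and pineal transcription factor, from 138 to 264 FPKM. All 14 pinealocyte markers had a mean of at least 1 FPKM. Their mean log2 level lay at 4.99 to 5.87 for wild type libraries and 5.49 to 5.97 for those of 5xFAD, with Normal-22 the only wild type library inside the 5xFAD range. Normal-22 also stood apart by Xist, a transcript of the inactive X chromosome, at 13.3 FPKM against 0.0048 to 0.0404 in the other libraries, although all mice were stated to be male. Ddx3y, a gene of the Y chromosome, was present in all 8 libraries (32.0 to 59.4 FPKM). Nr2e3, a defining gene of retinal rods, was near 0 at a mean of 0.0824 FPKM, although 8 of 14 retinal markers were present at 1 FPKM or more. Of 8 markers of habenula neurons, 3 reached 1 FPKM, namely Chrnb4 (mean 194), Chrna3 (80.1) and Slc17a6 (61.3), and Gpr151, Pou4f1, Chrnb3, Tac2 and Nwd2 had means under 0.1 FPKM. Their summed level was 181 to 533 FPKM in wild type libraries, and the 5xFAD libraries had 320 to 417 FPKM. The summed level of 8 osteoblast markers was 84.7 to 2000 FPKM in wild type, while 5xFAD libraries had 37.2 to 435 FPKM, and that of 8 neutrophil markers was 21.8 to 459 and 24.9 to 258 FPKM, both highest in Normal-11. The part of bone, marrow or pinealocyte content in the differences below was not tested, and in whole glands fewer cells of a type and less RNA per cell cannot be told apart.

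Promoter sequences from RefSeq (GRCm38.p6) were found for 8 of the 10 genes, in 9 windows of 250 bases before and 50 after the start. They were searched on both strands for TAATCC, the core bound by CRX and OTX factors, its variant TAATCT, and TGACGT, a piece of the cyclic AMP response element. Of the 8 genes, 5 had TAATCC, namely Guca1a, Gucy2f, Gucy2e, Cngb1 and Cnga1, while 7.06% of 32851 promoters of the same length had it. Gucy2f had 2 copies of it and 1 of TAATCT (8.19% of promoters), Cngb1 had 2 copies, and Gucy2e also had TGACGT (7.51% of promoters). No match was seen in the windows of Cnga3, Grk1 and Slc24a1. The windows of Cnga3 and Cnga1 lie wholly inside the GENCODE gene, so they do not cover the sequence before its start. A match is a run of letters and was not read as a bound site. The 4 upstream sequences below belong to Guca1a and Gucy2f, which moved in opposite directions, and to the other cyclase and the channel gene with the highest FPKM of the 10. They are written 5′ to 3′ on the gene's strand up to the base before the start, with the matches in capitals (GGATTA is TAATCC read on the other strand), and that of Gucy2e ends 14 bases earlier, where its GENCODE transcript begins.
Guca1a, chr17:47400607-47400856, minus strand: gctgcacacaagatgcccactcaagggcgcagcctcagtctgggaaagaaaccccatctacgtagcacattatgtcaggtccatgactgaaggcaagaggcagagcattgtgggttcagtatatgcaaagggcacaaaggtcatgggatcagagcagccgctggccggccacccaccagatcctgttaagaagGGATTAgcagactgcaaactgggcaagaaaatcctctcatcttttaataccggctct
Gucy2f, chrX:142196937-142197186, minus strand: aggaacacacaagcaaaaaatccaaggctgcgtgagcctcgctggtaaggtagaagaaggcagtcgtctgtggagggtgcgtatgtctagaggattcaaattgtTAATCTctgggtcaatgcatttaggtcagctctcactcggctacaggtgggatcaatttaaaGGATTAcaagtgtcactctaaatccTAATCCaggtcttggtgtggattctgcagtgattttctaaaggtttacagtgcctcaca
Gucy2e, chr11:69237037-69237272, minus strand: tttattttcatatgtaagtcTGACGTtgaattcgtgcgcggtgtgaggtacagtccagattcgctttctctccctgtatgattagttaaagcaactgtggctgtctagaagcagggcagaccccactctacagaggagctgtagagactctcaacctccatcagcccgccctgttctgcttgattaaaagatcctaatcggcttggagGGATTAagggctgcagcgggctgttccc
Cngb1, chr8:95306586-95306835, minus strand: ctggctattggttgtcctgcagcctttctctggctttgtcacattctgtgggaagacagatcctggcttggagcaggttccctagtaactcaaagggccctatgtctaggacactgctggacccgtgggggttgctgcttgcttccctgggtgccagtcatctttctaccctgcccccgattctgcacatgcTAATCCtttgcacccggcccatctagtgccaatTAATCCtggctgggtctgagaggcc

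Positions were counted from the RefSeq start, with -1 the base before it. The match nearest to that start lay at -57 to -52 in Guca1a, -59 to -54 in Gucy2f, -42 to -37 in Gucy2e and -25 to -20 in Cngb1. The printed Gucy2e sequence ends 14 bases before the RefSeq start, so its match lies nearer to the end of the sequence than these positions give. A second match of Cngb1 was at -58 to -53. Guca1a and Gucy2f held the nearest core at almost the same distance from the RefSeq start. The GENCODE transcripts of both begin downstream of it, at chr17:47400584 and chrX:142196931, so distances from there are longer and less alike. Whether these positions bear on the levels was not tested. The match of Cnga1 lay farther out, at -228 to -223 from a RefSeq start inside its GENCODE gene.

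**Figure D1:**
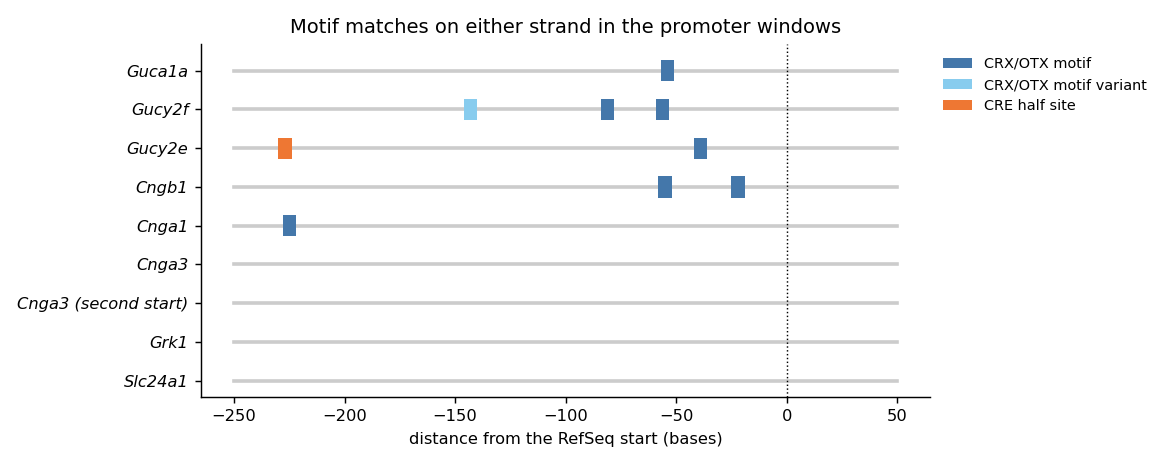
Motif matches in the 9 promoter windows of 8 genes, with the distance from the RefSeq start in bases on the horizontal axis (0 marks the start) and a coloured block for each match on either strand. Guca1a, Gucy2f, Gucy2e and Cngb1 each hold a CRX/OTX core within the last 60 bases or so before the start, and 4 windows are empty.

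Over the 8 libraries the members spanned a wide range of levels, led by Guca1a and Cngb1. The FPKM of Cngb1 does not separate channel transcripts from short ones that lack the channel, as described below. The mean FPKM was 39.8 for Guca1a, 32.0 for Cngb1, 18.7 for Gucy2e, 17 for Slc24a1, 6.66 for Grk1, 3.99 for Gucy2f, 2.26 for Cnga3, 1.11 for Guca1b, 0.142 for Rcvrn and 0.0169 for Cnga1. Among the genes tested, 87.9% had a lower mean than Guca1a and 84.0% a lower mean than Cngb1, but 1.19% lay below Guca1b. Neighbours in this order, which itself came from these values, were compared on log2(FPKM + 0.1) within libraries by an exact two-sided permutation of signs over 8 libraries (smallest possible p = 0.00781), with p values adjusted over 9 pairs. Cngb1 exceeded Gucy2e, Slc24a1 exceeded Grk1 and Gucy2f exceeded Cnga3 in 8 of 8 libraries (adjusted exact p = 0.0176 for each). Grk1 exceeded Gucy2f in 7 of 8 libraries (adjusted exact p = 0.0281) and Cnga3 exceeded Guca1b in 7 of 8 (adjusted exact p = 0.0469), and each of these calls was lost when some single libraries were left out, with adjusted exact p up to 0.0562 and 0.0938. The pairs with Gucy2f pool both groups and so include the contrast by which it was chosen. Grk1 was below Gucy2f in Normal-23 (6.86 and 7.44 FPKM), and the order within each group alone was not tested. The first place changed with the group, and Cngb1 was above Guca1a in 4 of 4 wild type libraries and below it in 4 of 4 5xFAD libraries, which follows the contrast by which Guca1a was chosen. Over the 8 libraries pooled, this pair gave a log2 difference of 0.26 (SD 0.93, n = 8, adjusted exact p = 0.483). Gucy2e and Slc24a1 did not differ beyond their spread (0.10, SD 0.43, n = 8, adjusted exact p = 0.523). Rcvrn and Cnga1 were listed at 0 in 3 and 6 libraries, and no order was read from the pairs that hold them. Without Normal-11, whose Gucy2e was the lowest, Gucy2e exceeded Slc24a1 by 0.23 on that scale (adjusted exact p = 0.0469). With any other single library left out this pair did not pass (adjusted exact p = 0.562 to 0.953), so no order was read from it.

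**Figure D2:**
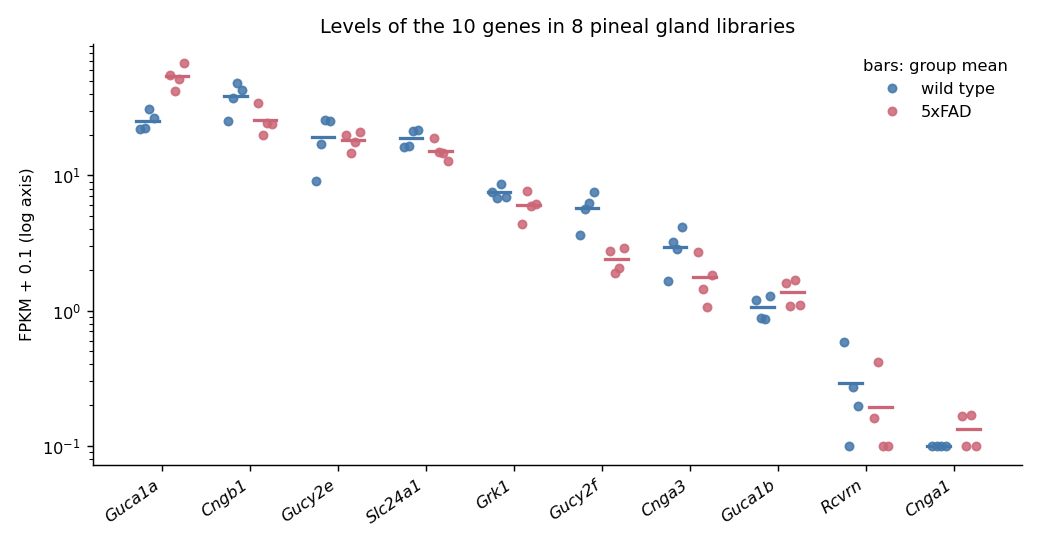
FPKM + 0.1 on a log axis for the 10 genes, ordered by mean level, with a point for each library and a bar at the mean of the 4 wild type (blue) or 4 5xFAD (red) libraries. The groups part for Guca1a, where all red points are above, and for Gucy2f, where all are below, and they overlap for the other 8 genes.

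Guca1a encodes the activating protein GCAP1, which brakes or drives the cyclases according to calcium. It lies at chr17:47394558-47400584 on the minus strand (GRCm38), with 1 annotated transcript of 873 nt. Its level was 21.8, 22.4, 30.9 and 26.3 FPKM in Normal-11, Normal-21, Normal-22 and Normal-23, and the 5xFAD group had 55.6, 42.4 and 51.6 FPKM in 5xFAD-1 to 5xFAD-3 and 67.7 FPKM in 5xFAD-21. All 4 libraries of 5xFAD were above all 4 of wild type, and the lowest of them was still above the highest wild type library, Normal-22. The means were 25.4 ± 4.24 (SD, n = 4) and 54.3 ± 10.5 FPKM (SD, n = 4), a log2 difference of 1.09 (SE 0.17) or 2.13-fold on log2(FPKM + 0.1). Leaving out any 1 library kept this difference between 0.98 and 1.20, and without Normal-22 it was 1.19. Of all genes tested, 2.11% had all their 5xFAD values above all wild type values, and since the gene was chosen for this contrast its membership in that share is no finding.

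Guca1b, its neighbour, encodes GCAP2, which is used mainly in rods. It lies at chr17:47385393-47392967 on the plus strand, so that the ends of both genes face each other across 1590 nt. Guca1b had 1.10, 0.778, 0.762 and 1.19 FPKM in the wild type libraries, and 1.49, 0.980, 1.58 and 0.990 FPKM in the libraries of 5xFAD, in the order given for Guca1a. The groups overlapped, with a log2 difference of 0.36 (SE 0.30), and the mean of 1.11 FPKM passed the minimum through the 5xFAD group (0.957 ± 0.219 in wild type and 1.26 ± 0.320 in 5xFAD, SD, n = 4 each). Guca1a exceeded Guca1b in all 8 libraries by 4.97 on the log2 scale (SD 0.56), about 31.2-fold (exact permutation p = 0.00781, the smallest possible, also after adjustment over 3 pairs). This pooled fold includes the contrast by which Guca1a was chosen. The ratio of their FPKM ran from 19.8 in Normal-11 to 68.4 in 5xFAD-21, with means of 27.8 ± 9.34 in wild type and 45.4 ± 15.9 in 5xFAD (SD, n = 4 each), and the groups overlapped.

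Gucy2f encodes guanylate cyclase F, the lesser of the photoreceptor cyclases in retina, at chrX:142081160-142196931 on the minus strand with 1 transcript of 8122 nt. It had 3.51, 5.59, 6.19 and 7.44 FPKM in the wild type libraries, and 2.66, 1.79, 1.95 and 2.79 FPKM in the libraries of 5xFAD. The 4 libraries of 5xFAD were all below the 4 of wild type, of which Normal-11 came closest to them. The means were 5.68 ± 1.64 and 2.30 ± 0.503 FPKM (SD, n = 4 each), a log2 difference of -1.25 (SE 0.26), or 2.37-fold lower in 5xFAD. It ranged from -1.45 to -1.10 with single libraries left out and was -1.19 without Normal-22. An estimated 262 to 700 fragments lay behind each value, which puts the counting error alone at 6.18 to 3.78%. Over all genes tested, 2.23% had all their 5xFAD values below all wild type values, which again was part of how the gene was chosen.

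Gucy2e encodes guanylate cyclase E, the main retinal cyclase, at chr11:69218117-69237036 on the minus strand. Its values were 9.06, 17.1, 25.5 and 25.0 FPKM in wild type, and 19.9, 14.5, 17.6 and 20.8 FPKM in the libraries of 5xFAD. The 5xFAD values all fell inside the wild type range, which ran from a low value in Normal-11 up to Normal-22. The log2 difference was 0.02 (SE 0.31) and took either sign as single libraries were left out (-0.30 to 0.20). In the gland Gucy2e was also the more abundant cyclase, above Gucy2f in 8 of 8 libraries by 2.31 on the log2 scale (SD 0.71), about 4.96-fold (exact permutation p = 0.00781, adjusted over 3 pairs). This pooled fold includes the contrast by which Gucy2f was chosen, and the lowest ratio in a library was 2.58.

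Ratios within a library set these genes against each other without the library's own scale. Gucy2e over Gucy2f was 2.58, 3.06, 4.12 and 3.37 in wild type and 7.49, 8.10, 9.05 and 7.47 in 5xFAD. The 5xFAD libraries had the more uneven pair of cyclases, with means of 3.28 ± 0.648 and 8.03 ± 0.742 (SD, n = 4 each). Guca1a over Gucy2f was 6.20, 4.01, 5.00 and 3.54 in wild type and 20.9, 23.7, 26.5 and 24.3 in 5xFAD, with means of 4.69 ± 1.18 and 23.9 ± 2.31 (SD, n = 4 each). Guca1a over Gucy2e was 2.40, 1.31, 1.21 and 1.05 in wild type and 2.79, 2.93, 2.93 and 3.25 in 5xFAD. For each of the 3 ratios the 4 libraries of 5xFAD lay above the 4 of wild type, Normal-22 included, and the values are a description because they rest on the contrast by which the genes were chosen.

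**Figure D3:**
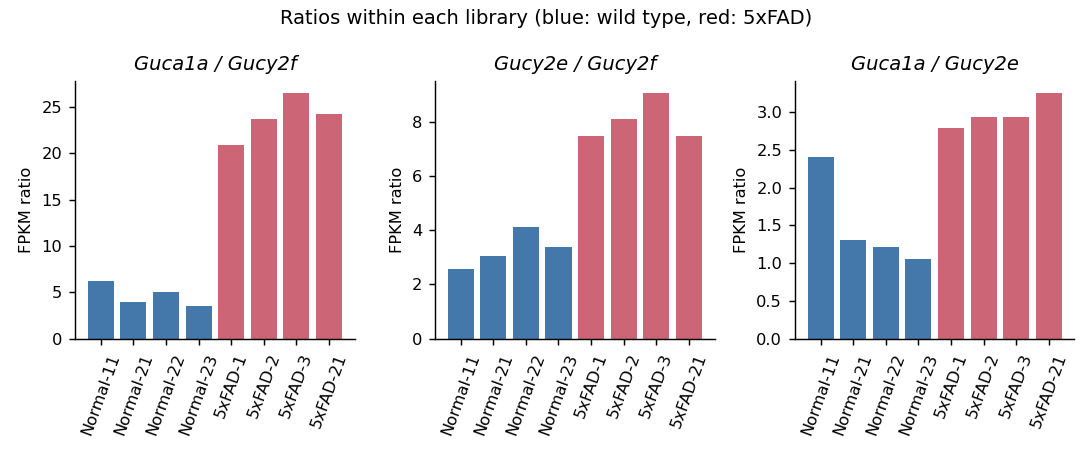
Bars give the ratio of 2 FPKM values within each of the 4 wild type (blue) and 4 5xFAD (red) libraries, for Guca1a over Gucy2f, Gucy2e over Gucy2f and Guca1a over Gucy2e. The lowest 5xFAD bars, at 20.9, 7.47 and 2.79, stand above the highest wild type bars, at 6.20, 4.12 and 2.40.

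Cngb1 encodes the modulatory subunit of the rod channel, and its locus at chr8:95239045-95306585 also makes short glutamic acid rich transcripts that lack the channel, which the gene FPKM does not separate among its 10 transcripts. It had 25.3, 37.6, 48.6 and 42.7 FPKM in wild type, and 34.1, 19.8, 24.4 and 23.9 FPKM in the libraries of 5xFAD. Of the wild type libraries 3 were above all of 5xFAD, and Normal-11 lay among them. The means were 38.5 ± 9.91 and 25.5 ± 6.08 FPKM (SD, n = 4 each), a log2 difference of -0.58 (SE 0.23).

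The genes of the pore subunits had lower FPKM. Cnga3, the pore subunit of the cone channel at chr1:37214434-37263384, had 1.55, 3.11, 2.73 and 4.05 FPKM in wild type, and 2.60, 1.34, 0.969 and 1.74 FPKM in the libraries of 5xFAD. The groups overlapped only through Normal-11, the lowest wild type library (log2 difference -0.76, SE 0.37). Cnga1, the pore subunit of the rod channel at chr5:72603696-72644275, was listed at 0 in 6 libraries and at 0.0664 FPKM in 5xFAD-1 and 0.0689 FPKM in 5xFAD-3. A listed 0 can be a failed estimate, as Malat1, abundant in most mammalian cells, was listed at 0 in all 8 libraries, so neither a fold nor a test of Cnga3 against Cnga1 is given. Listed zeros can also follow the group. Ttr had 9440 to 19600 FPKM in wild type and was listed at 0 in every 5xFAD library, and the cause was not tested. Cngb1 stood 10.5 to 25.1 times above Cnga3 within libraries, with means of 14.2 ± 3.42 in wild type and 16.7 ± 5.67 in 5xFAD (SD, n = 4 each).

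Slc24a1, the exchanger that carries calcium out of rods, at chr9:64922861-64951607, had 16.0, 16.5, 21.1 and 21.5 FPKM in wild type, and 18.8, 14.8, 14.5 and 12.6 FPKM in the libraries of 5xFAD. Only 5xFAD-1 reached into the wild type range, and the log2 difference was -0.31 (SE 0.16). Between 862 and 1840 estimated fragments lay behind each value.

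Grk1, the kinase that marks light-activated opsin for arrestin, at chr8:13405081-13421951 on the plus strand, was the steadiest member within wild type. It had 7.48, 6.67, 8.50 and 6.86 FPKM there (coefficient of variation 11.2%) and 4.30, 7.56, 5.88 and 6.05 FPKM in 5xFAD. Among the 5xFAD libraries only 5xFAD-2 reached the wild type range, and the log2 difference was -0.33 (SE 0.18), or -0.18 without 5xFAD-1, the lowest library, and -0.45 without 5xFAD-2. Rcvrn, which holds Grk1 back at high calcium, was at or near 0 beside it. Its FPKM of 0 to 0.488 stood for about 6, 0, 2 and 1 fragments in wild type and 1, 5, 0 and 0 in 5xFAD, on a transcript of 1040 nt at chr11:67695326-67703333 that overlaps Glp2r. With 3 of 8 libraries at 0, a level under 0.179 to 0.294 FPKM, the worth of 3 fragments, could not be told from none.

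Across the 8 members above the minimum, 3 had a log2 difference above 0 and 5 below 0, with a median of -0.32, while 6382 of the 13094 genes were above 0 and 6712 below and their median was -0.01. Among the 3, Gucy2e was at 0.02 and took either sign with single libraries left out. Guca1b, another of them, passed the minimum only through the 5xFAD group. The groups did not overlap for 1 member above and 1 below, beside the 2.11% and 2.23% of all genes given above. The mean log2 level of the pinealocyte markers lay higher in the 5xFAD group, as given above, but the markers were mixed. Of the 14 markers, 10 had a log2 difference above 0 and 4 below 0, with Crx at -0.13. After subtraction of the mean log2 level of this mixed set the differences were 0.68 for Guca1a, -0.06 for Guca1b, -0.39 for Gucy2e, -1.66 for Gucy2f, -0.74 for Grk1, -1.17 for Cnga3, -0.99 for Cngb1 and -0.72 for Slc24a1. On that scale only Guca1a stayed above 0.

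The share of unread bases per library, which the study lists, was low in 5xFAD-1 to 5xFAD-3 and in Normal-11 and higher in the other 4, so each set held a single library of one group. Within the low and the high set, Guca1a differed by 1.18 and 1.36, Gucy2f by -0.71 and -1.16, Grk1 by -0.37 and -0.27, and Guca1b by 0.25 and 0.14. The channel and exchanger genes did not hold in both. Cngb1 was at 0.01 in the low set and -0.83 in the high set, Cnga3 at -0.04 and -0.86, and Slc24a1 at -0.01 and -0.63. Gucy2e was at 0.92 in the low set, where Normal-11 was the only wild type library, and -0.09 in the high set. Transcript length moved with the difference over all genes, from a median of 0.08 for the 587 genes of up to 1000 nt to -0.12 for the 782 genes over 8000 nt. Guca1a is short and Gucy2f long, and after removal of the trend on length they stood at 1.01 and -1.17, an alternative chosen after seeing the data. The GC rate of the reads parted the groups and cannot be told apart from genotype, and with the trend on transcript GC content removed the values were 1.13 and -1.31.

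**Figure D4:**
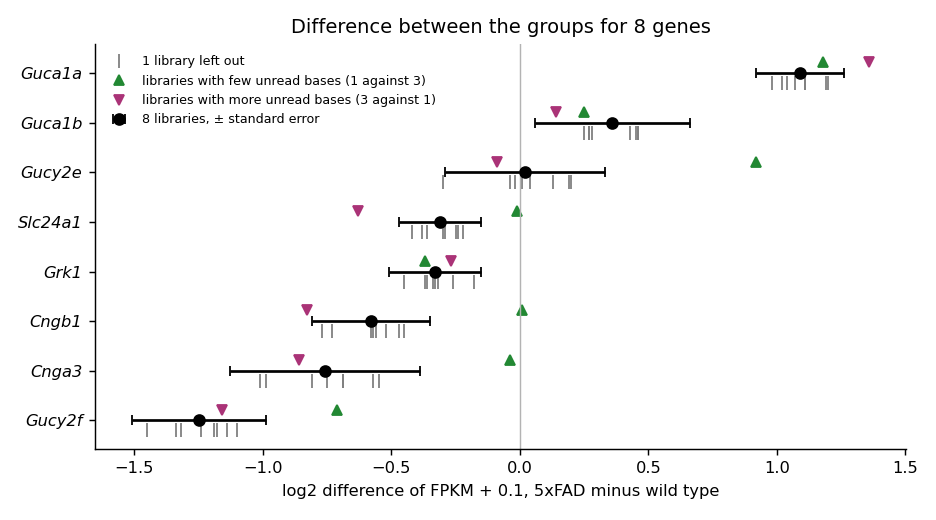
Log2 difference of FPKM + 0.1, 5xFAD minus wild type, for the 8 genes with a mean of at least 1 FPKM, with the standard error over 8 libraries (black), the values with 1 library left out (grey ticks), and the values within libraries with few (green) and more (purple) unread bases. All marks of Guca1a are above 0 and all of Gucy2f below, while green marks of Cngb1, Cnga3 and Slc24a1 sit at 0.

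Rod and cone forms of the same part were both found, and the form with the higher mean depended on the part. Cngb3, the modulatory subunit of the cone channel, had a mean of 50.6 FPKM (34.0 to 81.0) and a ratio to Cngb1 of 0.995 to 2.37 within libraries. The Cngb1 value does not separate out the short transcripts that lack the channel. Slc24a2, the cone exchanger, had 28.0 FPKM (17 to 42.4) and a ratio to Slc24a1 of 1.06 to 2.40. For transducin the cone forms had the higher means, with Gnat2 at 118 FPKM and Gnat1 at 0.377 FPKM, Gnb3 at 559 and Gnb1 at 149 FPKM, and Gngt2 at 412 and Gngt1 at 11.3 FPKM. For the phosphodiesterase the catalytic cone subunit Pde6c had 117 FPKM and the rod subunits Pde6b and Pde6a 80.1 and 2.01 FPKM, but the inhibitory gamma subunit was the rod form, with Pde6g at 747 FPKM and Pde6h at 0.171 FPKM. The arrestins also favoured the rod form, with Sag at 656 and Arr3 at 4.97 FPKM. Of 10 pairs the cone form had the higher mean in 8 and the rod form in 2, with Pde6c counted against both Pde6a and Pde6b. The ranges of Pde6b (36.0 to 133 FPKM) and Pde6c (85.5 to 151 FPKM) overlapped. These pairs are a description, chosen in part after their values were seen, and Cnga1 and Pde6h hold listed zeros. The RNA came from whole glands, and which cells gave each value, that of Gnb1 included, was not tested.

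**Figure D5:**
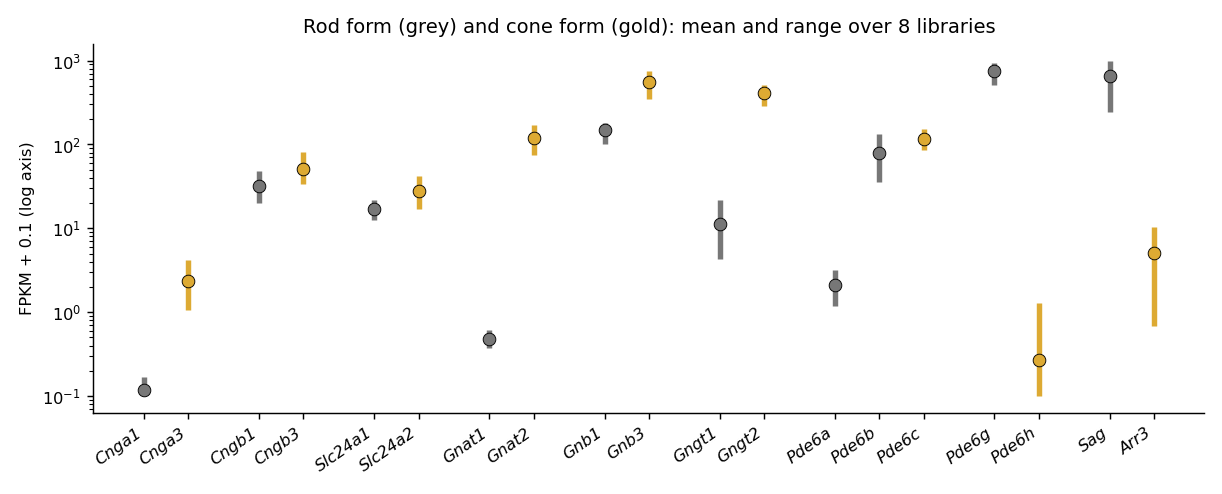
Mean (point) and range (bar) of FPKM + 0.1 over 8 libraries on a log axis, for the rod forms (grey) and the cone form (gold) of channel subunits, exchanger, transducin, phosphodiesterase and arrestin. The cone form has the higher mean except for the gamma subunit of the phosphodiesterase (747 against 0.171 FPKM) and the arrestins (656 against 4.97 FPKM), where the rod form does.

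Genes of the same pathway outside the 10 were read from 6 lists of 74 genes, of which 57 were tested with limma on log2(FPKM + 0.1), with Benjamini-Hochberg adjustment over the 13094 genes. No list gene passed an adjusted p under 0.05, as against 5 of all genes (0.0382%). At an unadjusted p under 0.05, 8 were higher in 5xFAD and 1 was lower, beside 4.6% and 3.35% of all genes. With Normal-22 left out the 8 became 20 and 1 gene, Arr3, passed the adjusted threshold. The same run raised the counts over all genes, from 602 to 1263 higher and from 5 to 94 adjusted calls. The 19 tested partners of the light cascade had 16 values above 0 and a median of 0.28, whereas the 9 partners of cyclase and channel had 7 below 0 and a median of -0.11. The 14 pinealocyte markers had 10 values above 0, 4 below 0 and a median of 0.38, with 4 higher at an unadjusted p under 0.05.

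Other enzymes of cyclic GMP did not share one direction, with 5 of 10 above 0. Gucy1b3 (now Gucy1b1), the beta subunit of the nitric oxide sensing soluble cyclase, had 14.9, 11.2, 18.6 and 14.1 FPKM in wild type, and 36.2, 23, 26.2 and 26.1 FPKM in the libraries of 5xFAD. The groups did not overlap, but the log2 difference of 0.92 (SE 0.19) did not pass (adjusted p = 0.371 from limma, and 0.0508 to 0.991 with single libraries left out). Its partner Gucy1a3 (now Gucy1a1) had 0.49 (adjusted p = 0.654 from limma). Pde2a, a phosphodiesterase that cyclic GMP stimulates, was at 1.98 ± 1.09 FPKM in wild type, against 4.77 ± 1.11 FPKM in the 5xFAD group (log2 difference 1.37, SE 0.40, adjusted p = 0.545 from limma), with the groups apart. Npr2, the receptor cyclase for C-type natriuretic peptide, was at -0.22 (adjusted p = 0.635 from limma).

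Among relatives of the calcium sensors, 8 of 10 were above 0 and the median was 0.29. Kcnip2, a sensor that binds Kv4 potassium channels, had 1.59 ± 0.483 and 3.31 ± 0.694 FPKM with the groups apart (log2 difference 1.03, SE 0.25, adjusted p = 0.516 from limma). Hpca (hippocalcin) was at 0.56 (adjusted p = 0.607 from limma), Ncald (neurocalcin delta) at 0.57 (adjusted p = 0.640) and Ncs1 (neuronal calcium sensor 1) at 0.35 (adjusted p = 0.641). Of the 5 other kinases of the Grk1 family, 2 were above 0. Adrbk1 and Adrbk2 (now Grk2 and Grk3) had -0.16 and 0.14, Grk4 -0.32 and Grk6 -0.20, with adjusted p of 0.691 to 0.835 from limma.

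In the light cascade, Gngt1, the gamma subunit of rod transducin, had 7.96, 4.26, 11.6 and 5.04 FPKM in wild type, and 12.7, 13.4, 14.1 and 21.5 FPKM in the libraries of 5xFAD, with the groups apart (log2 difference 1.16, SE 0.32, adjusted p = 0.541 from limma). Sag, the arrestin that binds phosphorylated opsin, was at 496 ± 306 and 817 ± 151 FPKM (log2 difference 0.89, SE 0.38, adjusted p = 0.623 from limma), and both are also on the list of pinealocyte markers. Arr3, cone arrestin, had 0.893, 0.575, 8.76 and 1.07 FPKM in wild type, and 10.4, 4.76, 5.47 and 7.88 FPKM in the libraries of 5xFAD. Normal-22 alone lay among the 5xFAD values. Its log2 difference of 2.09 (SE 0.73, adjusted p = 0.593 from limma) became 2.90 without Normal-22 (adjusted p = 0.0186 from limma). Rgs9bp, which anchors the GTPase accelerator of transducin, was at 0.67 (adjusted p = 0.615 from limma).

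Among partners of cyclase and channel, Rd3, which carries the photoreceptor cyclases out of the endoplasmic reticulum and inhibits them, had 7.29 ± 1.53 and 5.38 ± 2.84 FPKM (log2 difference -0.56, SE 0.36, adjusted p = 0.701 from limma, and -0.26 without 5xFAD-1). Cacna1f, the calcium channel of photoreceptor terminals, was at -0.78 (adjusted p = 0.629 from limma), Cacnb2, a beta subunit of such channels, at 0.73 (adjusted p = 0.636), and Atp2b2, a plasma membrane calcium pump, at -0.45 (adjusted p = 0.787), a value carried by 5xFAD-1, without which it was -0.03. Of other exchangers, Slc24a3 was the list's lower gene at the unadjusted threshold, with 29.4 ± 6.85 and 19.7 ± 5.41 FPKM (log2 difference -0.59, SE 0.26, adjusted p = 0.624 from limma). Slc24a4 and Slc24a5 were at -0.35 and 0.21, and the mitochondrial exchanger Slc8b1 at -0.26 (adjusted p of 0.632 to 0.722 from limma).

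The genes whose levels followed Guca1a and Gucy2f most closely within the groups were sought by the Pearson correlation of log2(FPKM + 0.1) over 8 libraries after subtraction of each group's mean. Daxx (0.986), Speg (0.980) and Cbx8 (0.979) followed Guca1a, and Lrrc14 (0.986), F8a (0.980) and Rhpn1 (0.978) followed Gucy2f. The points of each correlation share the library and its scale, and the genes were picked as the highest of 13094, so the values carry no test.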

How the data were processed

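Total RNA of pooled pineal glands was depleted of ribosomal RNA and sequenced as stranded paired-end libraries, 4 of wild type and 4 of 5xFAD mice, grouped by the genotype in the labels. The deposited FPKM values were made by the authors, who trimmed reads with Trimmomatic, aligned them to mm10 (GRCm38.p6) with STAR and computed FPKM per gene with Cuffnorm on GENCODE M17. Tool versions, the strand setting and the library normalization of Cuffnorm are not given in the sources used here. The deposited mean of the 8 columns was not used.

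Differences were computed in R 4.3.3 by limma 3.58.1 (a linear model per gene and an empirical Bayes spread that follows the mean) on log2(FPKM + 0.1), for protein-coding genes with a mean of at least 1 FPKM, with Benjamini-Hochberg adjustment, all 8 libraries and no covariate. The pseudocount understates the change of low genes. Levels within libraries were compared by exact sign permutation in Python 3.11.15. Fits were tested on simulated data. FPKM of single-transcript genes fell on whole multiples of 1 fragment for 98.9 to 99.4% of low values (within 0.1). Since the step depends on transcript length, no count test was run. Counting errors given are those of fragment number only. Coordinates are from GENCODE M21 on GRCm38, matched by gene ID.

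The members and all gene lists were chosen with earlier results of these data known. Named are the 10 members, up to 4 genes per list with the smallest unadjusted p, pinealocyte and label checks, and 3 genes most like Guca1a and Gucy2f each. Tried as well were other pseudocounts (0.01 and 1), other filters (none, or a mean of 5 FPKM), 2 other scalings, unread bases (low or high) in the model, a block by replicate number, no trend, all annotated genes, leaving out each library, subtraction of pinealocyte markers, and, chosen after seeing the data, removal of the trends on GC content and length (lowess, span 0.3).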

Additional observations from a re-analysis of the deposited data

Results flagged for a closer look

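Of 73 groups of 4 libraries checked for 1 library far from the rest, 4 were marked, and chance marks about 1 in 20. None of them was a member. Gngt1 stood at 21.5 FPKM in 5xFAD-21 and at 12.7 to 14.1 FPKM in the other 5xFAD libraries. Slc24a3 stood at 11.6 FPKM in 5xFAD-21 and at 22.2 to 22.9 FPKM in the others. Arr3 stood at 8.76 FPKM in Normal-22 and at 0.575 to 1.07 FPKM in the other wild type libraries, and Xist at 13.3 FPKM in Normal-22 and at 0.0048 to 0.0404 FPKM in the others.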

How the results depend on the processing

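The members' differences kept their sign under all other scalings, pseudocounts, filters and covariates tried and with each library left out, except for Gucy2e (-0.30 to 0.20 with single libraries left out, -0.39 relative to the pinealocyte markers) and Guca1b (-0.06 relative to the pinealocyte markers). That subtraction moved Guca1a to 0.68, Gucy2f to -1.66, Grk1 to -0.74, Cngb1 to -0.99 and Slc24a1 to -0.72. With unread bases as a term Guca1a was at 1.27 and Gucy2f at -0.94. Over all genes, the 5 calls at an adjusted p under 0.05 became 8 with no filter, 8 with all annotated genes and 4 to 94 with single libraries left out (94 without Normal-22). The 602 higher genes at an unadjusted p under 0.05 became 298 to 1263 and the 439 lower genes 213 to 1105 with single libraries left out (298 and 213 without Normal-21, 374 higher without Normal-23, 269 lower without 5xFAD-2), and the lower genes 914 with unread bases as a term. In the gene lists the adjusted calls were 0 to 1, the higher genes 4 to 20 (4 without Normal-11 or Normal-21) and the lower genes 0 to 4 with single libraries left out, with 5 higher at a minimum mean of 5 FPKM, and 4 lower with unread bases as a term and 0 with no trend, with GC removed or with length removed.

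In the order of levels, Grk1 over Gucy2f ranged from 0.71 to 1.02, Cnga3 over Guca1b from 0.74 to 1.10 and Gucy2e over Slc24a1 from 0.01 to 0.23 on the log2 scale over runs with 7 libraries. Grk1 over Gucy2f and Cnga3 over Guca1b crossed the threshold in some of these runs, and Gucy2e over Slc24a1 did so only without Normal-11. For the lost calls the causes were not tested beyond the smaller number of libraries. Same-numbered replicates did not deviate together (correlations of -0.04, 0.21, -0.34 and 0.24), so the numbers were not taken to pair the samples. With the replicate number as a block, 4 genes passed the adjusted threshold and 388 higher genes the unadjusted one, no list gene was called, and the members' differences were the same by construction. For Rcvrn, 0 to 6 fragments a library limit what can be said of its level, and whether the listed zeros of Cnga1 are low levels or failed estimates was not tested.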
